A study of Mus musculus with 6 samples.

Results

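The genes described here encode the machinery that moves new proteins into the endoplasmic reticulum (ER), attaches their first sugar chains and carries them between the ER and the Golgi. They were chosen by name as 54 genes of 8 complexes, and all 54 were found among the 55487 genes of the deposited table. These genes and the lists set beside them were chosen with earlier results of these data known. Shares called among them are therefore descriptions and not independent tests. Bone marrow of mice whose genotype is given as Mmrn1-GFP supplied cells that the labels call long-term haematopoietic stem cells (LT-HSCs), and RNA was sequenced from 3 libraries of Mmrn1-high cells and 3 libraries of Mmrn1-low cells. GFP is green fluorescent protein, and Mmrn1 encodes multimerin 1, a protein of platelets and endothelium. The labels give no sex, age, treatment or surface gate, do not say what drives GFP in this allele, and do not say whether replicates came from separate mice. Each p-value therefore measures only how far these libraries spread, and that spread could be technical.

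In a cell that makes secreted or surface proteins, the signal recognition particle (SRP) binds the signal peptide of a nascent protein and docks the ribosome at the SRP receptor. The chain enters the Sec61 channel, signal peptidase removes the signal peptide, and oligosaccharyltransferase (OST) transfers a preassembled sugar chain to asparagine. COPII vesicles then carry cargo from the ER to the Golgi, and COPI vesicles return receptors and escaped ER proteins. In marrow, cells that fill granules or secrete antibody depend heavily on this route, and human mutations in SRP54 and SEC61A1 cause neutropenia, while SEC23B mutations cause a congenital dyserythropoietic anaemia.

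Between 11595104 and 30909990 reads were counted per library. Mmrn1 itself was at 8.82, 9.80 and 11.5 CPM, the counts of a gene scaled to a fixed library total, in the 3 Mmrn1-high libraries, against 5.65, 5.61 and 5.82 CPM in the Mmrn1-low libraries, a log2 fold change of 0.82 ± 0.12 SE (edgeR quasi-likelihood test, Benjamini-Hochberg adjusted p = 4.85e-04). The totals carry TMM factors, a correction for a few genes taking a large share of reads, and a positive log2 fold change means a higher level in Mmrn1-high cells. Mmrn1-high cells had 13 of 15 stem cell markers higher and 0 lower, where 30.7% of all tested genes were higher, and the summed level was 1090 to 1120 CPM in Mmrn1-high libraries, against 556.2 to 603.3 CPM in Mmrn1-low libraries. Of 5 genes known to be low in long-term stem cells, 4 were also higher in Mmrn1-high cells (Il7r by 2.59, Flt3 by 1.81, Cd34 by 1.26 and Cd48 by 0.51 on the log2 scale) and Fcgr3 was lower (−2.09). Those 5 summed to 1554 to 1588 CPM in Mmrn1-high and 732 to 784 CPM in Mmrn1-low libraries. The libraries labelled LT-HSC also held transcripts of more mature cells, since Mpo, the granulocyte progenitor peroxidase, averaged 1945 ± 20.6 CPM in Mmrn1-high and 12575 ± 434 CPM in Mmrn1-low libraries (SD, n = 3 each).

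Transcripts of nearly the whole route were lower in Mmrn1-high cells. Of the 54 genes, all of which passed the filter on low counts, 49 (90.7%) fell, 1 rose and 4 missed the threshold of an adjusted p of 0.05 in the edgeR quasi-likelihood test, with a median log2 fold change of −0.64. Among all 15419 genes tested, 61.2% were called, 30.5% lower and 30.7% higher, and the median was 0.01. A fall by 1 or more on the log2 scale was called for 7 of the 54 genes, against 4.90% of all genes. For 52 of the 54 genes no library of one group reached into the other, with Mmrn1-high below for 51 and above for 1, where 33.7% and 34.1% of all genes were so placed. Together the 54 genes took 0.824%, 0.812% and 0.828% of the counts of the Mmrn1-high libraries, against 1.23%, 1.22% and 1.25% of the Mmrn1-low libraries. Their level lay above that of the median tested gene for 52 of the 54.

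Some marker lists of other cells moved with this difference and others did so in part. All 12 granulocyte progenitor markers were lower in Mmrn1-high cells, and their summed level was 3788 to 3874 CPM in Mmrn1-high libraries, against 24560 to 25880 CPM in Mmrn1-low libraries. Of 12 tested plasma cell markers, 5 (41.7%, against 30.5% of all genes) were lower (Fkbp11, Derl3, Igkc, Mzb1 and Igha) and 1, Sdc1, was higher, with sums of 938 to 1014 CPM in Mmrn1-high and 1484 to 1510 CPM in Mmrn1-low libraries. Of the plasma cell markers that were not called, Jchain, Pou2af1, Ighm and Tnfrsf13b had log2 fold changes of −0.94, −0.17, −0.04 and −0.08, and the regulators Prdm1 (0.45) and Irf4 (0.28) lay above in every Mmrn1-high library. None of the 13 plasma cell markers listed was at 0 in every library, but Tnfrsf17 was too low to be tested. It was at 0, 0.123 and 0.335 CPM in Mmrn1-high libraries, against 0.317, 0.295 and 0.105 CPM in Mmrn1-low libraries. Of 11 tested tissue macrophage markers 10 were lower, with sums of 44.8 to 45.4 CPM in Mmrn1-high and 252 to 258 CPM in Mmrn1-low libraries. Marco was not tested, with no count in any Mmrn1-high library and in 2 of the 3 Mmrn1-low libraries. All 16 mitotic genes were lower, with sums of 2041 to 2112 CPM in Mmrn1-high and 4316 to 4335 CPM in Mmrn1-low libraries. The part of these cells in the secretory difference was not tested. In bulk samples, fewer cells of a type and less RNA per cell cannot be told apart. With library size as the sole scaling, the log2 fold changes of all genes lay higher by a median of 0.15, and 66.0% of called genes were then higher in Mmrn1-high cells, against 50.2% with TMM factors, but 46 of the 54 genes were still called lower and 1 higher.

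**Figure D1:**
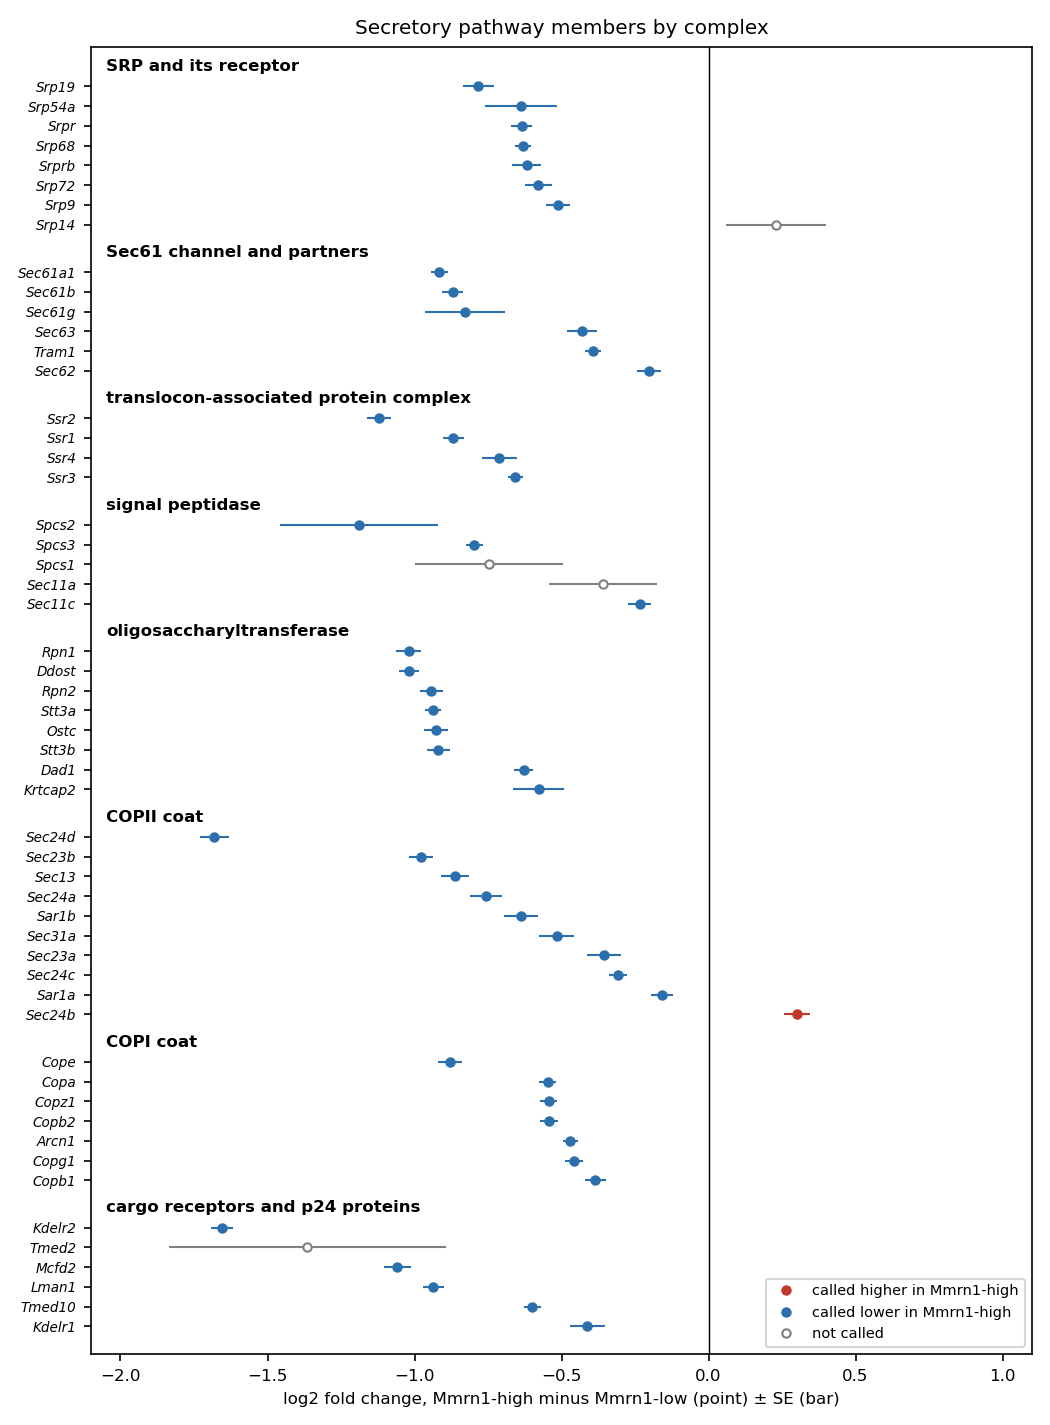
Log2 fold change of each of the 54 genes, Mmrn1-high minus Mmrn1-low (horizontal axis, points with SE bars), grouped by complex. Blue points mark the 49 genes called lower, the red point marks Sec24b, called higher, and open grey points mark the 4 genes that missed the threshold.

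The SRP and its receptor deliver ribosomes to the ER. Of the 8 genes, 7 fell and Srp14 missed the threshold, and those that fell lay within a narrow range of log2 fold changes, from −0.78 to −0.51. Srp68, which with Srp72 forms the large protein dimer of the particle, was at 195, 196 and 192 CPM in Mmrn1-high libraries, against 303, 294 and 306 CPM in Mmrn1-low libraries. Every Mmrn1-high library was below every Mmrn1-low library, and the log2 fold change was −0.63 ± 0.03 SE (edgeR adjusted p = 6.06e-07). Srp72 had a log2 fold change of −0.58 ± 0.05 SE, and Srp19, which helps assemble the particle, had the largest fall of the group at −0.78 ± 0.05 SE. The genes of the receptor moved by like amounts, with log2 fold changes of −0.64 ± 0.03 SE for Srpr, which encodes the docking subunit, and −0.62 ± 0.05 SE for Srprb, its membrane anchor. Srprb shares 20.7% of its exon bases with the model Gm20425 on the same strand. In all, 18 of the 54 genes share exon bases with another gene, 2 of them on the same strand, and because the strand setting of the counting is not stated, their counts may hold reads of that gene. After Srprb, the shared parts were largest in Spcs1 (16.3%), Krtcap2 (15.7%), Srp9 (14.1%), Ssr2 (12.8%) and Sec62 (11.7%). Srp9 fell by 0.51 ± 0.04 SE on the log2 scale, while Srp14, which encodes its partner in the Alu domain that slows translation, was at 73.0, 76.1 and 74.6 CPM in Mmrn1-high libraries, against 81.3, 55.6 and 54.1 CPM in Mmrn1-low libraries. The groups overlapped for Srp14 because 1 library, Mmrn1-low replicate 1, stood above all others. Its log2 fold change was 0.23 ± 0.17 SE with all libraries (edgeR adjusted p = 0.296) and 0.45 without that library (adjusted p = 1.85e-04).

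Srp54a encodes the subunit that binds both the signal peptide and GTP, and in this genome it stands beside near-identical copies, Srp54b and Srp54c, on chromosome 12. Of the counts of the 3 genes over all libraries, 94.8% were assigned to the copies, so the reads of a single copy are uncertain. The summed level of the 3 was 235, 247 and 252 CPM in Mmrn1-high libraries, against 359.6, 358 and 360.4 CPM in Mmrn1-low libraries. That sum fell by 0.56 ± 0.03 SE on the log2 scale, near the −0.64 ± 0.12 SE of Srp54a alone, and the groups did not overlap on either count.

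The Sec61 channel is the pore through which proteins enter the ER lumen or membrane. All 6 genes of the channel group fell, and the 3 channel subunits had larger falls than the 3 partner proteins. Sec61a1, which encodes the pore-forming subunit, was at 268, 277 and 283 CPM in Mmrn1-high libraries, against 526, 515 and 521 CPM in Mmrn1-low libraries. That is 1.89-fold lower in Mmrn1-high cells, with a log2 fold change of −0.92 ± 0.03 SE (edgeR adjusted p = 1.07e-07). The small subunits moved by like amounts, at −0.87 ± 0.04 SE for Sec61b and −0.83 ± 0.14 SE for Sec61g. Processed copies of Sec61g elsewhere in the genome held 81.4% of the counts of the gene and its copies together, and the sum over them was 28.8, 29.7 and 27.2 CPM in Mmrn1-high libraries, against 54.7, 57.3 and 58.0 CPM in Mmrn1-low libraries. The low level of Sec61g alone, 5.07 to 6.47 CPM in Mmrn1-high libraries, therefore holds only part of the reads that match its sequence.

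The partners of the channel had smaller falls. Sec63, a co-chaperone that recruits BiP to the channel, had a log2 fold change of −0.43 ± 0.05 SE, and Tram1, which helps signal sequences insert, had −0.39 ± 0.03 SE. Sec62, which acts in post-translational import and in recycling of the ER, was at 152, 149 and 162 CPM in Mmrn1-high libraries, against 173, 183 and 176 CPM in Mmrn1-low libraries. The groups did not overlap, and the log2 fold change was −0.20 ± 0.04 SE (edgeR adjusted p = 0.00311). Scaled by library size alone, Sec62 was at −0.05 and no longer called (adjusted p = 0.285).

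The translocon-associated protein complex sits beside the channel and helps weak signal sequences to open it. All 4 genes fell, with the largest change in Ssr2, which encodes the beta subunit. Ssr2 was at 147, 152 and 144 CPM in Mmrn1-high libraries, against 322, 335 and 307 CPM in Mmrn1-low libraries. Each Mmrn1-high library held less than every Mmrn1-low library, a 2.17-fold lower level (log2 fold change −1.12 ± 0.04 SE, edgeR adjusted p = 1.75e-07). The alpha subunit Ssr1 had −0.87 ± 0.03 SE, the delta subunit Ssr4 had −0.71 ± 0.06 SE and the gamma subunit Ssr3 had −0.66 ± 0.02 SE.

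Counts of several signal peptidase genes were uneven between libraries of a group. Of its 5 genes, 3 fell and 2 missed the threshold. Spcs3, a subunit needed for activity of the enzyme, was at 257, 264 and 264 CPM in Mmrn1-high libraries, against 443, 461 and 460.3 CPM in Mmrn1-low libraries, with a log2 fold change of −0.80 ± 0.03 SE. Spcs3 thus differed by far more than the spread within either group. Spcs2, an accessory subunit, was at 89.4, 81.9 and 131 CPM in Mmrn1-high libraries, against 256, 172 and 257 CPM in Mmrn1-low libraries. Its groups did not overlap, but its spread was wide, and its log2 fold change of −1.19 ± 0.27 SE was called (edgeR adjusted p = 0.0170) in the full set and lost without Mmrn1-high replicate 1 (0.0649) or 2 (0.0607) or Mmrn1-low replicate 1 (0.0577) or 3 (0.0610). Spcs1, a small accessory subunit, was at 41.4, 35.7 and 34.8 CPM in Mmrn1-high libraries, against 86.4, 50.3 and 51.0 CPM in Mmrn1-low libraries. All Mmrn1-high libraries were lower, but Mmrn1-low replicate 1 stood above its own group, and the difference missed the threshold with it (−0.75 ± 0.25 SE, edgeR adjusted p = 0.0522) and passed without it (−0.44, adjusted p = 0.00490).

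The catalytic subunits of signal peptidase, Sec11a and Sec11c, are alternative to each other. Sec11c fell slightly, with a log2 fold change of −0.23 ± 0.04 SE, which library size scaling moved to −0.09 (edgeR adjusted p = 0.0919). Sec11a was at 80.8, 66.9 and 77.1 CPM in Mmrn1-high libraries, against 74.3, 117 and 96.6 CPM in Mmrn1-low libraries. Here the groups overlapped (−0.36 ± 0.18 SE, edgeR adjusted p = 0.153), and without Mmrn1-low replicate 1 the difference was −0.50 (adjusted p = 0.0158). Sec11a also shares 8.20% of its exon bases with other genes, among them Nmb on the same strand.

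**Figure D2:**
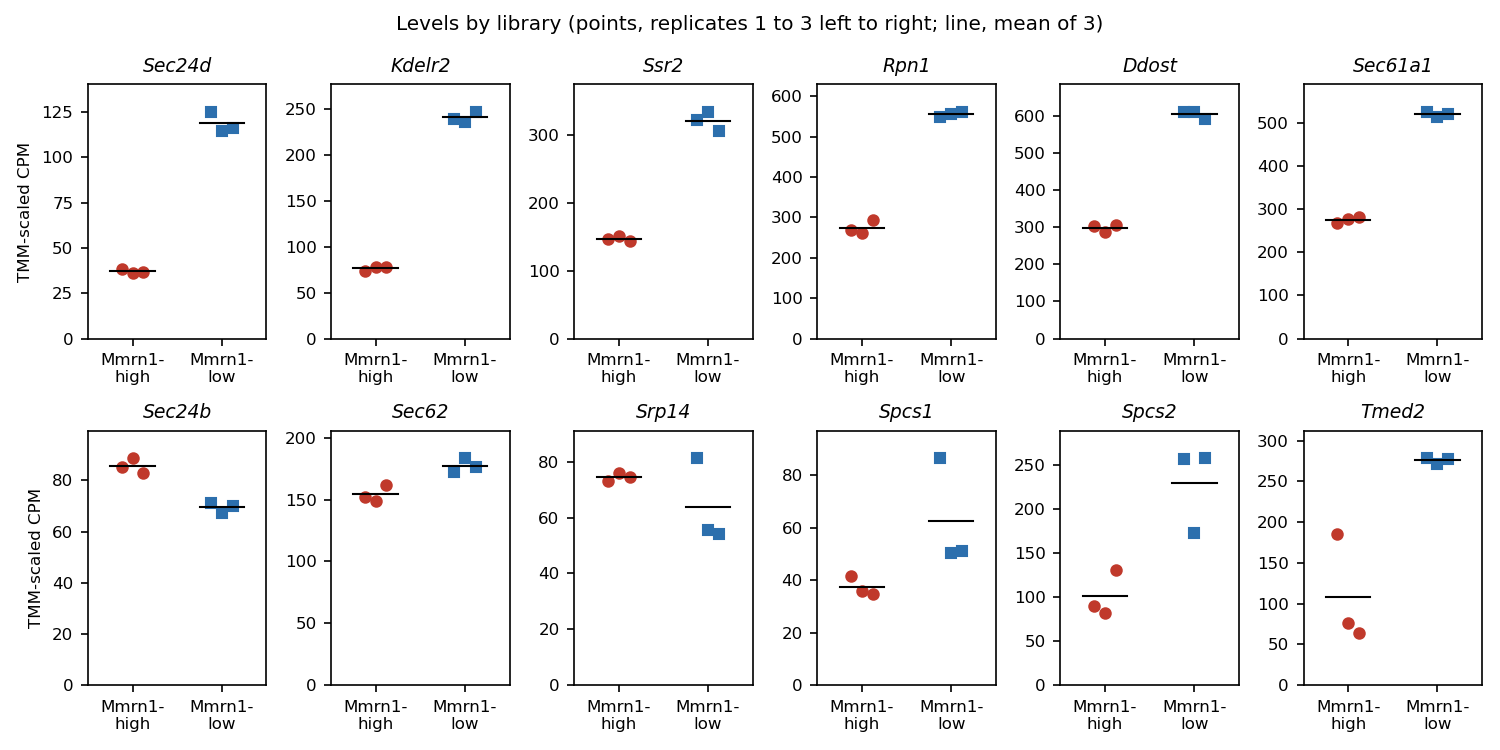
TMM-scaled CPM of 12 of the 54 genes in each library, with Mmrn1-high libraries (red circles) left of Mmrn1-low libraries (blue squares) and the mean of 3 as a line; each vertical axis starts at 0. The upper row holds genes with large and even falls, such as Sec24d at 36.1 to 38.2 CPM in Mmrn1-high libraries, and the lower row holds Sec24b, Sec62 and 4 genes with uneven libraries.

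OST had the largest sum per transcript length of the 8 complexes, and its genes moved almost as a block. These sums cover unequal numbers of genes and leave out near-identical copies. All 8 genes fell, and 6 of them lay between −1.02 and −0.92 on the log2 scale. Rpn1, which encodes ribophorin I and presents substrates to the enzyme, was at 268, 261 and 293 CPM in Mmrn1-high libraries, against 548, 558 and 562 CPM in Mmrn1-low libraries. Levels in Mmrn1-high cells were 2.03-fold lower (log2 fold change −1.02 ± 0.04 SE, edgeR adjusted p = 4.98e-07). Ddost, an essential non-catalytic subunit, was at 303, 286 and 307 CPM in Mmrn1-high libraries, against 612, 610.5 and 592 CPM in Mmrn1-low libraries, with a log2 fold change of −1.02 ± 0.03 SE. Both genes separated the groups without overlap. Rpn2 had −0.94 ± 0.04 SE.

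Mammalian OST exists in a form with STT3A, which glycosylates chains as they enter the channel, and a form with STT3B, which acts afterwards on sites that were skipped. Both catalytic genes fell by nearly the same amount, Stt3a by 0.94 ± 0.03 SE and Stt3b by 0.92 ± 0.04 SE on the log2 scale. Ostc and Krtcap2, which belong to the STT3A form, had −0.93 ± 0.04 SE and −0.58 ± 0.09 SE, and the exon bases that Krtcap2 shares are those of Trim46 on the other strand. Dad1, a shared subunit, had −0.63 ± 0.03 SE. The oxidoreductase subunits of the STT3B form lay outside the 54 genes and parted ways, since Magt1 fell (−0.76 ± 0.03 SE) and Tusc3 rose (0.28 ± 0.07 SE), at 112 CPM in Mmrn1-high against 189 CPM in Mmrn1-low cells for Magt1 and 22.4 against 18.4 CPM for Tusc3.

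The COPII coat, in which SAR1 recruits SEC23 with SEC24 and then SEC13 with SEC31, was the least uniform complex. Of its 10 genes, 9 fell and 1, Sec24b, rose, and the log2 fold changes spanned −1.68 to 0.30. Sec24d, which encodes 1 of 4 cargo-binding subunits, was at 38.2, 36.1 and 37.0 CPM in Mmrn1-high libraries, against 125, 115 and 116 CPM in Mmrn1-low libraries. That was the largest fall of the 54 genes, 3.21-fold (log2 fold change −1.68 ± 0.05 SE, edgeR adjusted p = 7.47e-08). Sec24b, its paralogue, was at 85.2, 88.7 and 83.0 CPM in Mmrn1-high libraries, against 71.3, 67.2 and 70.2 CPM in Mmrn1-low libraries. All Mmrn1-high libraries were above all Mmrn1-low libraries, a 1.23-fold rise (0.30 ± 0.04 SE, edgeR adjusted p = 5.12e-04). The other SEC24 genes fell, Sec24a by 0.76 ± 0.05 SE and Sec24c by 0.31 ± 0.03 SE on the log2 scale.

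Among the remaining COPII genes, Sec23b, the SEC23 form mutated in human dyserythropoietic anaemia, was at 76.6, 79.0 and 81.8 CPM in Mmrn1-high libraries, against 153, 162 and 153 CPM in Mmrn1-low libraries. Its log2 fold change was −0.98 ± 0.04 SE (edgeR adjusted p = 4.35e-07), while that of its paralogue Sec23a was −0.35 ± 0.06 SE. Of the outer cage, Sec13, which is also a nuclear pore component, had −0.86 ± 0.05 SE and Sec31a had −0.52 ± 0.06 SE. The GTPase genes had −0.64 ± 0.06 SE for Sar1b, the form mutated in human chylomicron retention disease, and −0.16 ± 0.04 SE for Sar1a. Scaled by library size alone, Sar1a was at −0.01 and not called (edgeR adjusted p = 0.848).

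Promoter sequence was read for these genes because they fell together and because XBP1 and ATF6, transcription factors of the unfolded protein response, are known to bind elements of defined letters. Windows from 250 bases before to 50 after a gene start were available for 42 of the 54 genes (RefSeq, GRCm38.p6). The element TGACGTGG, the core of the unfolded protein response element, was found on either strand in 4 of the 42, Sec24d, Sec23a, Copb1 and Copb2, against 1.0% of 10367 genes that had at least 10 counts in 3 libraries. The element known as ERSE-II was found in 1 of the 42, Krtcap2, against 0.0868% of those genes, and that known as ERSE in none, against 0.183%. The reverse complement of TGACGTGG is CCACGTCA, whose first letters are also those that end an ERSE. Those matches are letters in a window and not measured binding sites. Most of the 42 genes had no match to any of these elements, while 49 of the 54 genes fell. The sequences below run 5′ to 3′ on the strand of the gene, from 150 bases before the start to 28 after it. Matched letters are in capitals, and Sec24b, the gene that rose, is shown beside Sec24d with no match, as in most genes that fell.
Sec24d, chr3:123267346-123267523, plus strand: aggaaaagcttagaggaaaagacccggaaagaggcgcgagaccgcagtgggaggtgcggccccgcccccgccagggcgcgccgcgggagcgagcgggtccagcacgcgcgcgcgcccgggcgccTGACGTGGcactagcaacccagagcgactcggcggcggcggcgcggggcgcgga
Sec24b, chr3:130060880-130061057, minus strand: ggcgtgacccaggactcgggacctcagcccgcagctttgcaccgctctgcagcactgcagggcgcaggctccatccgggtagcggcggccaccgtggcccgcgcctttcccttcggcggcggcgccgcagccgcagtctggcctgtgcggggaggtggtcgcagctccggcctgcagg
Sec23a, chr12:59011990-59012167, minus strand: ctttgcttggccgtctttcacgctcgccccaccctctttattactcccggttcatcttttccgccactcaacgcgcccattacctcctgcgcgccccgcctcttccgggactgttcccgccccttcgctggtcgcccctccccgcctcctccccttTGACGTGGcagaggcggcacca
Copb1, chr7:114254653-114254830, minus strand: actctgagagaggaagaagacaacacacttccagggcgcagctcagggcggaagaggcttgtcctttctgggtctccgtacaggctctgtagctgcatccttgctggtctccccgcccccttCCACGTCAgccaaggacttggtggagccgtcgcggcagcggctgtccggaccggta
Copb2, chr9:98563581-98563758, plus strand: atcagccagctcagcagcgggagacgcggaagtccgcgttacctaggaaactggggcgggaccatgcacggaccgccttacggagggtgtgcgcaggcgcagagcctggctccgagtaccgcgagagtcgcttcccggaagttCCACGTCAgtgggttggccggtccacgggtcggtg
Krtcap2, chr3:89246323-89246500, plus strand: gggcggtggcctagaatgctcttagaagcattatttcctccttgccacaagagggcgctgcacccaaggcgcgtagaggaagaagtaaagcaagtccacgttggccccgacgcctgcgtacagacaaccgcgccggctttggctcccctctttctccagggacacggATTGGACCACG

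The genes that hold these letters did not share a size of change. Sec24d had the largest fall of the 54, whereas Copb1 (−0.39 ± 0.04 SE), Copb2 (−0.54 ± 0.03 SE), Sec23a (−0.35 ± 0.06 SE) and Krtcap2 (−0.58 ± 0.09 SE) had falls smaller than the median of the 54 genes. The transcription factor genes themselves were lower, Xbp1 at 57.4, 59.7 and 55.3 CPM in Mmrn1-high libraries, against 291, 165 and 161 CPM in Mmrn1-low libraries. The groups did not overlap for Xbp1, although Mmrn1-low replicate 1 was far above its group (−1.83 ± 0.29 SE, edgeR adjusted p = 0.00476). Atf6 had −0.19 ± 0.04 SE and Atf6b, its paralogue, −0.63 ± 0.04 SE. Whether these factors regulate the 54 genes in these cells was not tested. Of the ER chaperone genes, Calr was at 1490, 1533 and 1508 CPM in Mmrn1-high libraries, against 4247, 4205 and 4257 CPM in Mmrn1-low libraries, and Hspa5, which encodes BiP, at 664, 422 and 690.1 CPM in Mmrn1-high libraries, against 1031, 1027 and 1015 CPM in Mmrn1-low libraries. Both genes separated the groups without overlap, and replicate 2 was the lowest Mmrn1-high library for Hspa5.

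The COPI coat returns cargo from the Golgi to the ER and within the Golgi. All 7 genes fell, with log2 fold changes from −0.88 to −0.39. Copa, which encodes the alpha subunit and is mutated in a human autoinflammatory disease, was at 326, 324 and 329 CPM in Mmrn1-high libraries, against 463, 475 and 492 CPM in Mmrn1-low libraries. The groups did not overlap, and the log2 fold change was −0.55 ± 0.03 SE (edgeR adjusted p = 1.76e-06). Cope, the epsilon subunit, had the largest fall at −0.88 ± 0.04 SE and Copb1 the smallest. Between them lay Copz1 (−0.54 ± 0.03 SE), Copb2, Arcn1, which encodes the delta subunit (−0.47 ± 0.03 SE), and Copg1 (−0.46 ± 0.03 SE).

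Cargo receptors and p24 proteins select what the coats carry. Of these 6 genes, 5 fell and Tmed2 missed the threshold. Kdelr2, which encodes a receptor that returns chaperones with a KDEL tail to the ER, was at 73.3, 78.2 and 77.9 CPM in Mmrn1-high libraries, against 240, 236 and 247 CPM in Mmrn1-low libraries. This was the second largest fall of the 54, 3.15-fold, with tight libraries in both groups (log2 fold change −1.66 ± 0.04 SE, edgeR adjusted p = 2.59e-08). Its paralogue Kdelr1 was at 69.9, 66.7 and 65.9 CPM in Mmrn1-high libraries, against 94.7, 92.1 and 82.7 CPM in Mmrn1-low libraries, with a smaller fall of 0.41 ± 0.06 SE on the log2 scale. Lman1 and Mcfd2 encode the pair that carries coagulation factors V and VIII out of the ER, and they fell by like amounts, with log2 fold changes of −0.94 ± 0.04 SE and −1.06 ± 0.05 SE.

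The p24 proteins Tmed2 and Tmed10 form a complex with each other. Tmed10 had a log2 fold change of −0.60 ± 0.03 SE. Tmed2 was at 185, 75.6 and 64.0 CPM in Mmrn1-high libraries, against 279, 271 and 278 CPM in Mmrn1-low libraries. All Mmrn1-high libraries were lower, but replicate 1 stood far above the other two, so the difference of −1.36 ± 0.47 SE missed the threshold (edgeR adjusted p = 0.0633) and without that library was −1.96 (adjusted p = 3.72e-06). Gm10698 and Gm7318, processed copies of Tmed2, held 47.2% of the counts of the gene and its copies. Added to Tmed2, an alternative chosen after values had been seen, they gave 309.7, 206 and 197 CPM in Mmrn1-high libraries, against 483, 467 and 480.2 CPM in Mmrn1-low libraries (−1.01 ± 0.20 SE, edgeR adjusted p = 0.0102). Replicate 1 was not apart in Gm10698 alone, at 124, 130 and 132 CPM in Mmrn1-high libraries.

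Summed over each complex per transcript length, the levels of all 8 complexes were lower in Mmrn1-high libraries without overlap. Of single genes tested, 33.7% were so placed. The falls ran from 29.4% for the SRP and its receptor to 54.8% for the cargo receptors. The unit is the authors' FPKM (fragments scaled to gene length and library size) divided by the library's TMM factor. Near-identical copies are not in these sums. The SRP sum thus lacks Srp54b (29.8 in Mmrn1-high and 43.9 in Mmrn1-low libraries) and Srp54c (16.6 and 23.9). In the Sec61 sum, copies left out held 81.4% of the joint counts for Sec61g and 25.4% for Sec61b. The cargo receptor sum lacks Gm10698, a copy of Tmed2 (213 in Mmrn1-high and 331 in Mmrn1-low libraries). It also lacks Tmed10-ps, a copy of Tmed10 (71.6 and 128). The order of the complexes by level or by size of fall thus holds only for sums without copies. OST stood at 393 ± 9.85 in Mmrn1-high and 757 ± 2.63 in Mmrn1-low libraries (SD, n = 3 each), a ratio of 0.520, and Ddost alone made up 141 of the first sum and 285 of the second. The translocon-associated complex stood at 182 ± 0.672 in Mmrn1-high and 324 ± 2.71 in Mmrn1-low libraries, signal peptidase at 116 ± 4.11 and 198 ± 3.93, and the cargo receptors at 146 ± 12.7 and 323 ± 4.99. The other complexes changed less, with ratios of Mmrn1-high to Mmrn1-low of 0.667 for the Sec61 group, 0.671 for COPII, 0.692 for COPI and 0.706 for the SRP group. The exact two-sided permutation test gave p = 0.10 for each of the 8 sums, which is the smallest value that 3 against 3 libraries allow, and 0.10 after Benjamini-Hochberg adjustment over the 8.

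**Figure D3:**
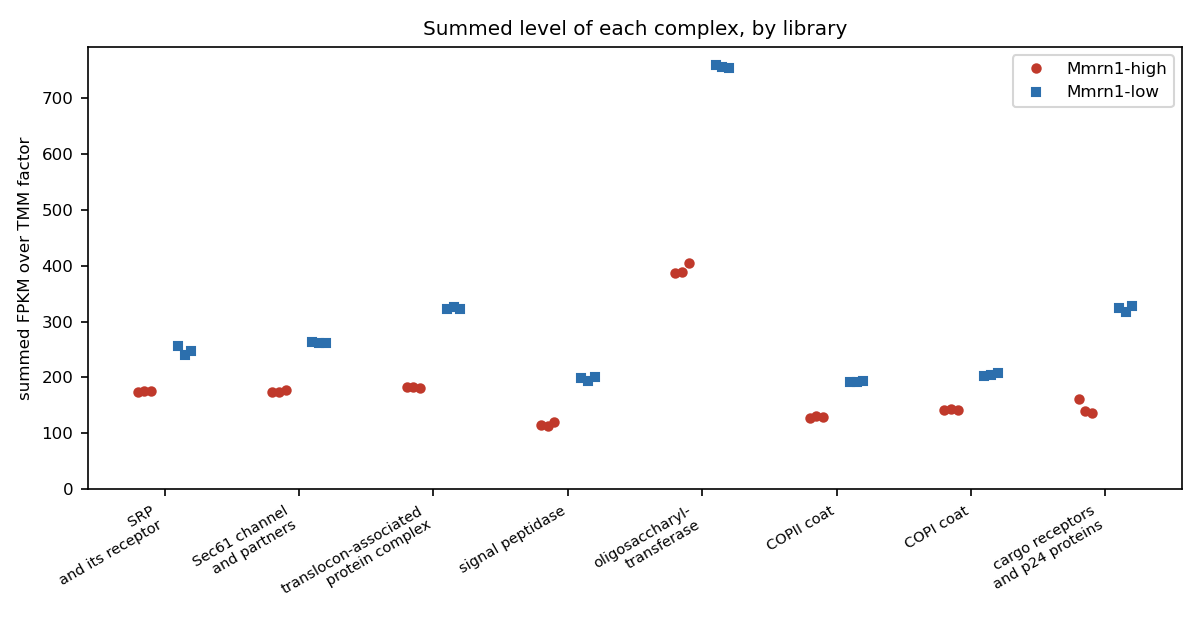
Summed FPKM over the TMM factor of the genes of each complex (vertical axis, from 0) in each library, Mmrn1-high as red circles left of Mmrn1-low as blue squares. OST stands at 386 to 405 in Mmrn1-high and 754 to 759 in Mmrn1-low libraries, and no complex has overlapping groups.

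Paralogues of the same step did not all change alike. The log2 ratio of the length-scaled levels of 8 pairs was compared between groups, and the libraries of the groups did not overlap for 6 pairs. Among single genes tested, the groups also did not overlap for 33.7% (Mmrn1-high below) and 34.1% (above). No such share was computed for ratios of other gene pairs, so the count of 6 has no background. The ratio of Sec24c to Sec24d was 3.55 in Mmrn1-high and 1.37 in Mmrn1-low cells (geometric means), a log2 difference of 1.37 with SDs of 0.008 and 0.059. Kdelr1 to Kdelr2 was 0.381 in Mmrn1-high and 0.161 in Mmrn1-low cells (log2 difference 1.25), Sec23a to Sec23b 0.592 and 0.385 (0.62), and Sar1a to Sar1b 1.08 and 0.772 (0.48). Sec24a to Sec24b was 0.210 in Mmrn1-high and 0.436 in Mmrn1-low cells, a log2 difference of −1.06. Copg1 to Copg2, a paralogue outside the 54 genes at 106 CPM in Mmrn1-high and 103 CPM in Mmrn1-low cells that was not called itself, was 0.736 in Mmrn1-high and 1.04 in Mmrn1-low cells (−0.50). Each of these 6 had an exact two-sided permutation p of 0.10, the smallest possible with 3 against 3, and 0.133 after Benjamini-Hochberg adjustment over the 8 pairs.

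The groups overlapped for the other two pairs. The ratio of Stt3a to Stt3b was 0.383 in Mmrn1-high and 0.388 in Mmrn1-low cells (exact permutation p = 0.80), a log2 difference of −0.02 against SDs of 0.063 and 0.032. That of Sec11a to Sec11c was 1.29 in Mmrn1-high and 1.38 in Mmrn1-low cells (exact permutation p = 0.70). A p of this size does not show that the ratios were equal.

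**Figure D4:**
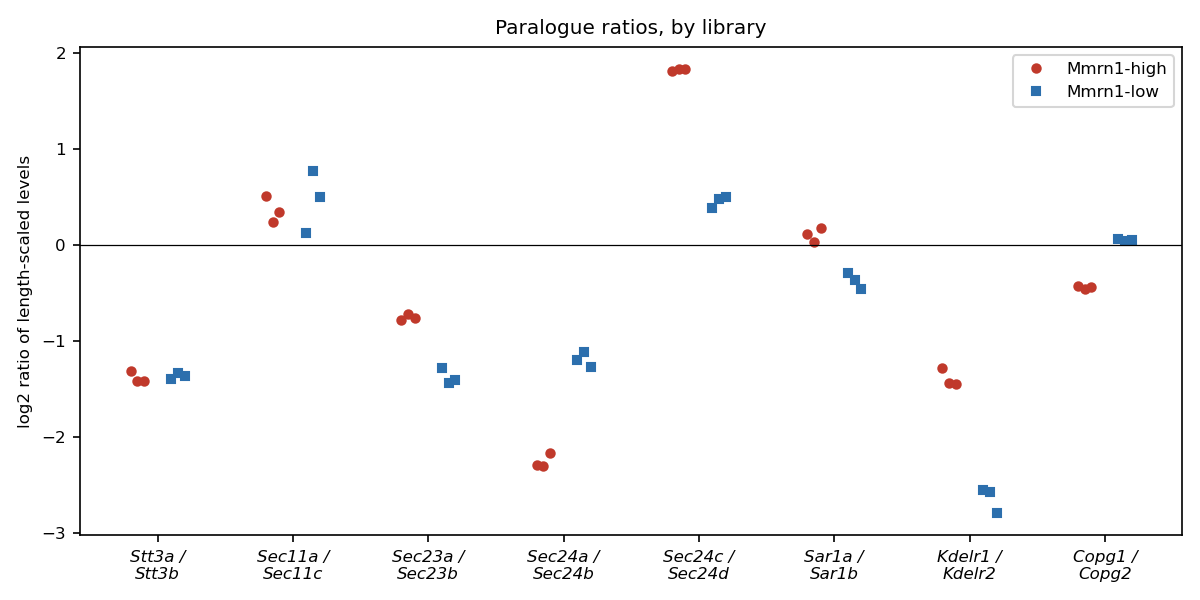
Log2 ratio of the length-scaled levels of 8 paralogue pairs (vertical axis) in each library, Mmrn1-high as red circles left of Mmrn1-low as blue squares. Sec24c over Sec24d lies at 1.82 to 1.83 in Mmrn1-high and 0.39 to 0.50 in Mmrn1-low libraries, and the groups overlap for Stt3a over Stt3b and Sec11a over Sec11c.

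The rest of the route, taken from 10 lists of 137 genes, was lower in Mmrn1-high cells as well but by less. Of 135 tested genes, 96 (71.1%) fell and 7 (5.19%) rose in the edgeR test, with a median log2 fold change of −0.36, beside the −0.64 of the 54 genes and the 0.01 of all genes. Of all genes tested, 30.5% were called lower and 30.7% higher. These calls and medians hold for TMM factors. With library size as the sole scaling, the log2 fold changes of all genes lay higher by a median of 0.15, near the size of the smaller falls below. The list of other translocon and OST subunits, which also held Srp54b and Srp54c, had 6 lower and 2 higher of 9. Magt1 and Mlec (−0.66 ± 0.02 SE), a lectin of the OST, fell most, and Tusc3 and Tram2 (0.27 ± 0.08 SE) rose. Srp54b (−0.56 ± 0.03 SE) and Srp54c (−0.53 ± 0.06 SE) are the SRP copies summed with Srp54a above. Both were among the 6 lower here and among the 96, so they add no separate evidence. Enzymes that build the sugar chain on dolichol had 13 lower and 0 higher of 22 and a median of −0.32, led by Dpagt1 (−0.83 ± 0.06 SE), the first enzyme of the chain, and the glucosyltransferase Alg6 (−0.61 ± 0.08 SE). Enzymes that trim it had 8 lower and 0 higher of 9, with Uggt1, the folding sensor that re-glucosylates proteins, at 175 ± 6.32 CPM in Mmrn1-high and 359.8 ± 23.0 CPM in Mmrn1-low libraries (SD, n = 3 each).

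The membrane insertion and anchoring machinery moved less evenly. Genes of the ER membrane complex and of tail-anchor insertion had 11 lower and 2 higher of 18, with a median of −0.20, and Emc4 (−0.76) and Asna1 (−0.73), the ATPase that delivers tail-anchored proteins, fell most while Mmgt2 (0.52) and Emc8 (0.32) rose. Of 8 genes that attach or remodel glycosylphosphatidylinositol anchors, 5 fell (Pgap2, Gpaa1, Pigs, Pigk and Pigu, between −0.39 and −0.22) and Pgap3 rose (0.60), with a median of −0.28. Regulators of COPII had 5 lower and 0 higher of 7, led by Sec23ip (−0.73) and Mia3 (−0.72), which encodes the collagen export receptor TANGO1, and followed by Tfg (−0.51), Preb (−0.30) and Mia2 (−0.20). Regulators and paralogues of COPI had 8 lower and 0 higher of 11, led by Arfgap3 (−0.76) and Gbf1 (−0.70), the exchange factor of ARF GTPases.

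Other cargo receptors and p24 genes had 14 lower and 1 higher of 17 tested, with a median of −0.43. Tmed3 was at 89.8 ± 7.78 CPM in Mmrn1-high and 263 ± 11.9 CPM in Mmrn1-low libraries, and Surf4, a receptor for soluble cargo, at 278 ± 5.80 CPM in Mmrn1-high and 588 ± 7.06 CPM in Mmrn1-low libraries (SD, n = 3 each). Tmed8 was the gene of this list that rose (0.32). SNAREs, tethers and Rab GTPases between the ER and the Golgi had 21 lower and 1 higher of 26, with the Golgi stacking genes Gorasp2 (−1.03) and Gorasp1 (−1.02) falling most and Use1 rising (0.16). The last list held transcription factor genes of the secretory route and Ern1, which encodes the kinase and nuclease IRE1 that splices Xbp1 RNA. Of its 8 tested genes 5 fell and 0 rose, namely Xbp1, Atf6b, Creb3l2 (−0.43), Atf6 and Ern1 (−0.42).

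**Figure D5:**
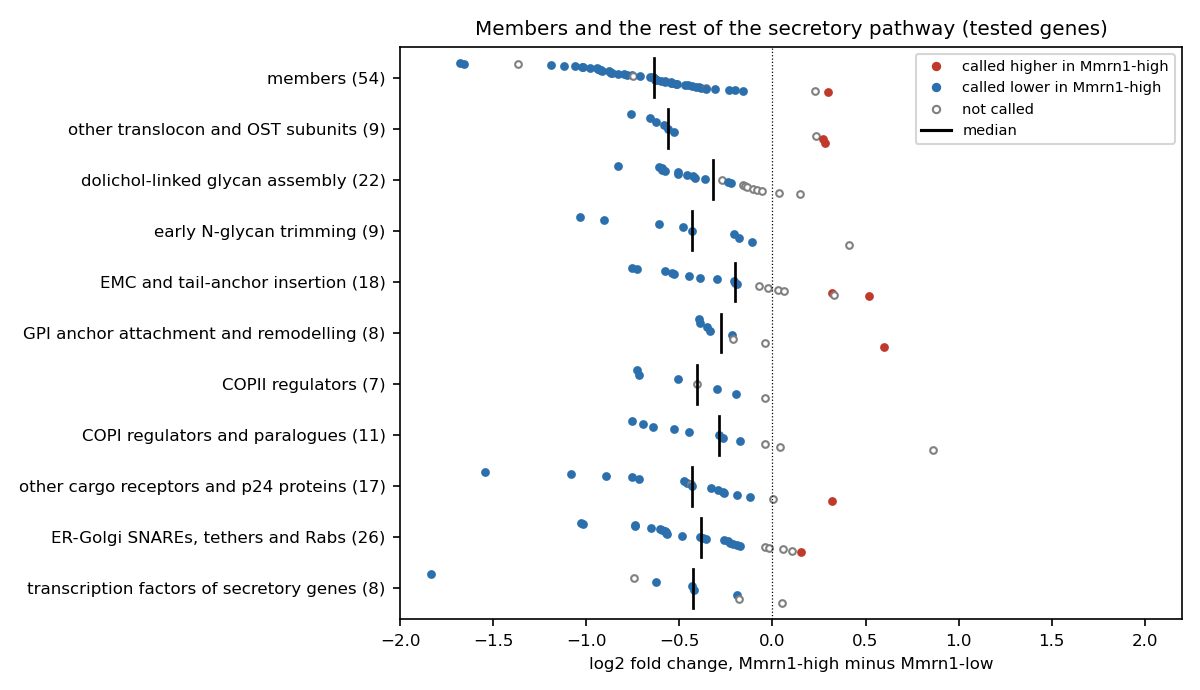
Log2 fold change, Mmrn1-high minus Mmrn1-low, of every tested gene (points). The 54 genes of the 8 complexes form a single row, above the 10 further lists of the secretory route. A bar marks the median of each row. Every median lies below 0, from −0.64 for the 54 genes to −0.20 for the membrane insertion genes.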

How the data were processed

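RNA was sequenced from 3 Mmrn1-high and 3 Mmrn1-low libraries. Raw gene counts and FPKM were deposited side by side in 1 table made by the authors. CASAVA 1.8, HISAT2, StringTie, edgeR and the build GRCm38 are listed, per the submitters' processing notes. No source used here states the strand setting of the counting.

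The counts were tested with edgeR 4.0.16 (R 4.3.3) by the quasi-likelihood test with TMM factors, its filter on low counts and group as the sole term, and p-values were Benjamini-Hochberg adjusted over 15419 genes, with a threshold of 0.05. SE is the log2 fold change over the square root of F. Sums per complex and paralogue ratios used the deposited FPKM over the TMM factor and exact permutation tests. The code was tested on simulated data. Counts of replicate libraries differed beyond sampling noise, so each was used as a sample. Near-identical copies were found with BLAST 2.17.0 (at least 95% identity over 200 bases) in GENCODE transcripts.

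Alternatives were other scalings and filters, DESeq2 1.42.0, limma 3.58.1 on log2(FPKM + 1) or log2(FPKM + 0.1), a replicate block, a stricter threshold and leaving out each library. The members and lists were chosen with earlier results of these data known. All 54 genes were described. Of each further list of the route, up to 2 called genes per direction were named, of each cell type list up to 2 of the most abundant, and the genes behind counts of 5 or fewer. The plasma cell markers that were not called or not tested, and Marco, were named after their values were seen.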

Additional observations from a re-analysis of the deposited data

How the results depend on the processing

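Of the 54 genes, 46 kept their call and direction under all 17 alternatives, 8 changed their call under at least 1, and 0 reversed. The median log2 fold change of the 54 was −0.49 with library size alone, −0.62 with no filter, −0.59 with at least 5 CPM in 3 libraries, −0.47 on log2(FPKM + 1) with or without a filter and −0.49 on log2(FPKM + 0.1), and between −0.66 and −0.62 when 1 library was left out. Leaving out 1 library gave 48 to 50 genes lower and 1 to 2 higher, with 2 without Mmrn1-low replicate 1, where Srp14 was also called. The limma tests on FPKM called 3019, 3011 and 3020 of all genes lower, against 4701 with edgeR, tested 13146, 13146 and 27171 genes, and moved the median of all genes up by 0.142, 0.147 and 0.134, and 61.2%, 61.2% and 66.0% of called genes were then higher. Sec62, Sec11c and Sar1a lost their call on FPKM as with library size alone. DESeq2 called 52 of the 54 lower, with Spcs1 (adjusted p = 4.25e-04), Sec11a (0.0309) and Tmed2 (0.0180) added. With the authors' FPKM as deposited, the log2 differences of the complex sums were −0.36 for SRP, −0.44 for Sec61, −0.68 for the translocon-associated complex, −0.62 for signal peptidase, −0.80 for OST, −0.43 for COPII, −0.38 for COPI and −1.0 for cargo receptors. Leaving out 1 library, the log2 difference of Stt3a over Stt3b ranged from −0.053 to 0.003, with 0.001 and 0.003 without Mmrn1-high replicate 2 and 3, and that of Sec11a over Sec11c from −0.273 to 0.051. The FPKM as deposited are not divided by the TMM factor, which is the step that sets those complex sums apart from the reported ones. The cause of the other changes was not tested. Same-numbered libraries did not deviate together (correlations of 0.043, −0.079 and 0.029). With 3 libraries per group, whose deviations also hold counting noise, this cannot exclude that the numbers pair them. With the replicate block, 50 of the 54 were lower and 1 higher. At the depth of these libraries the lowest count of any of the 54 genes was 62.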

Other observations

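Markers of further cell types did not move as one. Of all tested genes, 30.5% were lower and 30.7% higher. Of 9 tested megakaryocyte and platelet markers, 7 had a higher level in Mmrn1-high cells and 0 a lower one, and the sums were 420.4 to 429.6 CPM in Mmrn1-high and 194 to 204 CPM in Mmrn1-low libraries, and Itga2b, the platelet integrin subunit, had a log2 fold change of 1.49 ± 0.03 SE. Of 11 tested B cell markers, 9 were higher and 0 lower, with sums of 61.5 to 63.1 CPM in Mmrn1-high and 38.3 to 43.0 CPM in Mmrn1-low libraries. Of 7 tested mast cell and basophil markers, 5 (Cpa3, Fcer1a, Gata2, Prss34 and Cma1) were higher and 0 lower, with sums of 225 to 282 CPM in Mmrn1-high and 101 to 126 CPM in Mmrn1-low libraries.

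Late erythroid markers had 4 lower (Hba-a1, Klf1, Rhd and Ermap) and 2 higher (Hbb-bt and Car2) of 12, or 33.3% and 16.7%, against 30.5% and 30.7% of all tested genes. Endothelial and stromal markers had 5 lower (Flt1, Stab2, Cxcl12, Col1a1 and Col1a2) and 3 higher (Pecam1, Emcn and Pdgfrb) of 9 tested. Those are 55.6% and 33.3%, the latter near the 30.7% of all tested genes. T and NK cell markers had 1 lower, Nkg7 (−2.14 ± 0.03 SE), and 4 higher (Lck, Cd4, Klrb1c and Gzmb) of 6 tested, or 16.7% and 66.7%.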
